A study of Mus musculus with 13 samples.

Results

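The genes described here are 10 genes of blood vessels and their growth signals, out of 17924 genes in the deposited tables. They were given by name, with no limit on their values: *Pecam1*, *Cdh5*, *Kdr*, *Flt1*, *Tek*, *Vegfa*, *Vegfb*, *Angpt1*, *Aplnr* and *Car4*. All 10 were found under their Ensembl identifiers, and all 10 passed the limit on low values, 10 or more normalized counts in 3 or more libraries. The study sequenced RNA of whole muscles of mice with muscular dystrophy with myositis (*mdm*), a recessive rearrangement of the titin gene (*Ttn*) that removes part of the N2A-PEVK region of the protein. All 13 libraries used here come from *mdm* animals aged 29 to 42 days, bred in the B6C3Fe a/a-Ttn mdm/J colony. There were 5 libraries of the extensor digitorum longus (EDL), a fast muscle of the leg, 5 of the psoas, a fast muscle of the trunk, and 3 of the soleus, a slow muscle of the leg. No treatment was given, every library carries the mutation, and wild-type libraries were not analysed here. No value below compares genotypes.

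Blood vessels are lined by endothelial cells, which recognise vascular endothelial growth factors (VEGF) through tyrosine kinase receptors and grow toward the tissue that secretes them. Angiopoietin 1 acts through a second receptor kinase, TIE2, and keeps established vessels stable. In skeletal muscle, fibres themselves are a main source of VEGF-A, and oxidative muscle is known for a denser capillary bed than glycolytic muscle. Among the 10 genes, *Pecam1* and *Cdh5* encode adhesion molecules of endothelial junctions. *Kdr* (VEGF receptor 2), *Flt1* (VEGF receptor 1), *Tek* (TIE2) and *Aplnr* (the apelin receptor) encode receptors, *Vegfa*, *Vegfb* and *Angpt1* secreted ligands, and *Car4* a membrane-anchored carbonic anhydrase of the capillary wall and the muscle fibre surface.

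*Vegfa*, on the reverse strand of chromosome 17 (GRCm38, positions 46016993 to 46032369), was the gene of the group that met the call rule used here, so its promoter is shown together with those of its receptor genes *Kdr* (chromosome 5, 75932827 to 75978458, reverse strand) and *Flt1* (chromosome 5, 147561604 to 147726011, reverse strand). Each sequence is the RefSeq window of 250 bases before to 50 after an annotated start in GRCm38.p6, written 5′ to 3′ along the gene. The windows are chr17:46032328-46032627, chr5:75978406-75978705 and chr5:147725962-147726261, all on the minus strand. Capitals mark matches on either strand to the GC box GGGCGG, the ETS-type motif AGGAAG, the TATA box TATAAA and the hypoxia element core ACGTG.
Vegfa: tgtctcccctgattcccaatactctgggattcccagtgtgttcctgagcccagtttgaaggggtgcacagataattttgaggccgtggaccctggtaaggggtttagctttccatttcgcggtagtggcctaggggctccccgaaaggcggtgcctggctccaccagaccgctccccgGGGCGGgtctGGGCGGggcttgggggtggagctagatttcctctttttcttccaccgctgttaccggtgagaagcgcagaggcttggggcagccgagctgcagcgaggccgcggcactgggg
Kdr: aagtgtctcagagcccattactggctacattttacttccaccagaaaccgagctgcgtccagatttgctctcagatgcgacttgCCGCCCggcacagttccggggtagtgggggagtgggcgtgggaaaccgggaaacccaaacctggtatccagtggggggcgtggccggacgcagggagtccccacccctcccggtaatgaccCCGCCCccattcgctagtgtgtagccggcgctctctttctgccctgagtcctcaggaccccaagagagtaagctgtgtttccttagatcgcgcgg
Flt1: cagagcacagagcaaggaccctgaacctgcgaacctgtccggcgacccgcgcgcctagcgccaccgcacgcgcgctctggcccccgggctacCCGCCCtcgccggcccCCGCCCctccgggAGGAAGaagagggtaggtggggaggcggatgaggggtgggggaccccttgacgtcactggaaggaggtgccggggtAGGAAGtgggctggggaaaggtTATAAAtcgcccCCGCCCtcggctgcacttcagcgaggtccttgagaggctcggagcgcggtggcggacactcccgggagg

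The *Vegfa* window held 2 GC boxes, 72 and 62 bases before the start, and none of the other 3 motifs. That of *Kdr* held 2 GC boxes, at 166 and 45 bases before the start. In *Flt1* there were 3 GC boxes, 2 AGGAAG matches at 129 and 53 bases before the start, and a TATA box 31 bases before it. These letters are common. Of all 32851 promoter windows of the table, 35.7% held GGGCGG, 35.4% AGGAAG, 13.6% TATAAA and 19.6% ACGTG on at least 1 strand, overlapping matches being counted separately. Promoters were found for 6 of the 10 genes, those of *Vegfa*, *Kdr*, *Flt1*, *Tek*, *Vegfb* and *Car4*. The ACGTG core occurred in the *Car4* window and in the window of a second, downstream *Vegfa* start, 211 bases before that start.

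Total counts ran from 9114176 to 48835209 per library, so the lowest counts behind the 10 genes were 4 for *Aplnr*, 17 for *Vegfb*, 25 for *Car4*, 77 for *Angpt1* and at least 117 for the other genes. Levels are given as the authors' normalized counts, that is counts divided by the size factor of the library. A gene was called at an edgeR adjusted p under 0.01 with an absolute log2 fold change over 1, and a wider rule, adjusted p under 0.05 with no fold limit, is given beside it. The labels name EDL, psoas and soleus. All 4 slow fibre genes listed had an edgeR adjusted p under 0.05 and higher levels in soleus than in EDL. In soleus against psoas this held for 3 of 4. All 4 fast fibre genes listed were below EDL by the same rule in both other muscles, although psoas is a fast muscle. In soleus against psoas 0 of the 4 fast fibre genes passed that rule. The labels also carry codes T1 to T6 with no stated meaning, and differences within a code are given where they bear on a result. Nothing in the labels says that same-group libraries come from separate animals in every case, though the study calls them biological replicates. The study took all its muscles, wild-type ones included, from fewer mice than it made libraries. Given the ages it lists for wild-type mice, some of the 13 libraries must share an animal, and which ones is not stated. The main fit treats the libraries as independent, so its p-values describe the spread between these libraries and not between animals. The study's RNA integrity numbers of the psoas libraries were all at or below the lowest of EDL, and they were not modelled here.

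*Vegfa* was lower in psoas than in EDL. In EDL, replicates 1 to 5 had normalized counts of 1473, 1164, 1402, 1191 and 1223. In psoas they were 633, 484, 643, 607 and 585. All 5 psoas libraries lay below all 5 EDL libraries. The means were 590.4 ± 63.7 (SD, n = 5) in psoas and 1291 ± 138 (SD, n = 5) in EDL, a log2 fold change of -1.13 with a standard error of 0.156, or 2.19-fold (edgeR adjusted p = 0.00104). *Vegfa* was thus 1 of 10 genes called in this comparison, where 4.93% of all 17069 genes tested were called, 2.43% as higher and 2.5% as lower in psoas. It was also the 1 gene of the 10 whose psoas and EDL libraries did not overlap, against 13% of all genes tested (6.56% with psoas lower).

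The difference kept its direction in each split of the libraries. By same-numbered libraries, psoas minus EDL was -1.22, -1.26, -1.12, -0.97 and -1.06 on the log2 scale of normalized counts with 1 added. Within label code T4 the difference was -1.26, within T5 -1.12 and within T6 -1.02 on that scale. Codes T4 and T5 each hold 1 EDL and 1 psoas library, the pairs of replicates 2 and 3, and T6 holds those of replicates 4 and 5. The split by code therefore restates the pairs and is not a separate check. With any 1 of the 13 libraries left out the log2 fold change stayed between -1.16 and -1.06, with edgeR adjusted p between 0.00167 and 0.00387.

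The soleus levels of *Vegfa* overlapped those of EDL. The soleus normalized counts were 1381, 998 and 1061, with a mean of 1146 ± 205 (SD, n = 3). Against EDL the log2 fold change was -0.16 with a standard error of 0.178 and an edgeR adjusted p of 0.743. Against psoas, all 3 soleus libraries lay above all 5 psoas libraries. There the log2 fold change was 0.96 with an edgeR adjusted p of 0.0233, past the wider rule and not the call rule. The adjusted p of this difference ran from 0.0268 to 0.174 as single libraries were left out, the highest without soleus replicate 1, and was 0.209 in the highest of the other alternatives. None of the 10 genes was called in soleus against psoas, where 0.0762% of all genes tested were called, and *Vegfa* was the 1 of 10 past the wider rule, against 0.633% of all genes (0.434% as higher). None was called in soleus against EDL, where 0.978% of all genes were called, nor past the wider rule, against 3.43%, and the libraries of all 10 overlapped, where those of 11% of all genes did not. An unadjusted p under 0.05 was reached by 3 of 10 in soleus against psoas, where 12.7% of all genes reached it, by 1 of 10 in soleus against EDL, where 15.1% did, and by 3 of 10 in psoas against EDL, where 33.3% did. With DESeq2, 1 of 10 met the call rule in soleus against psoas and 0 in soleus against EDL.

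**Figure D1:**
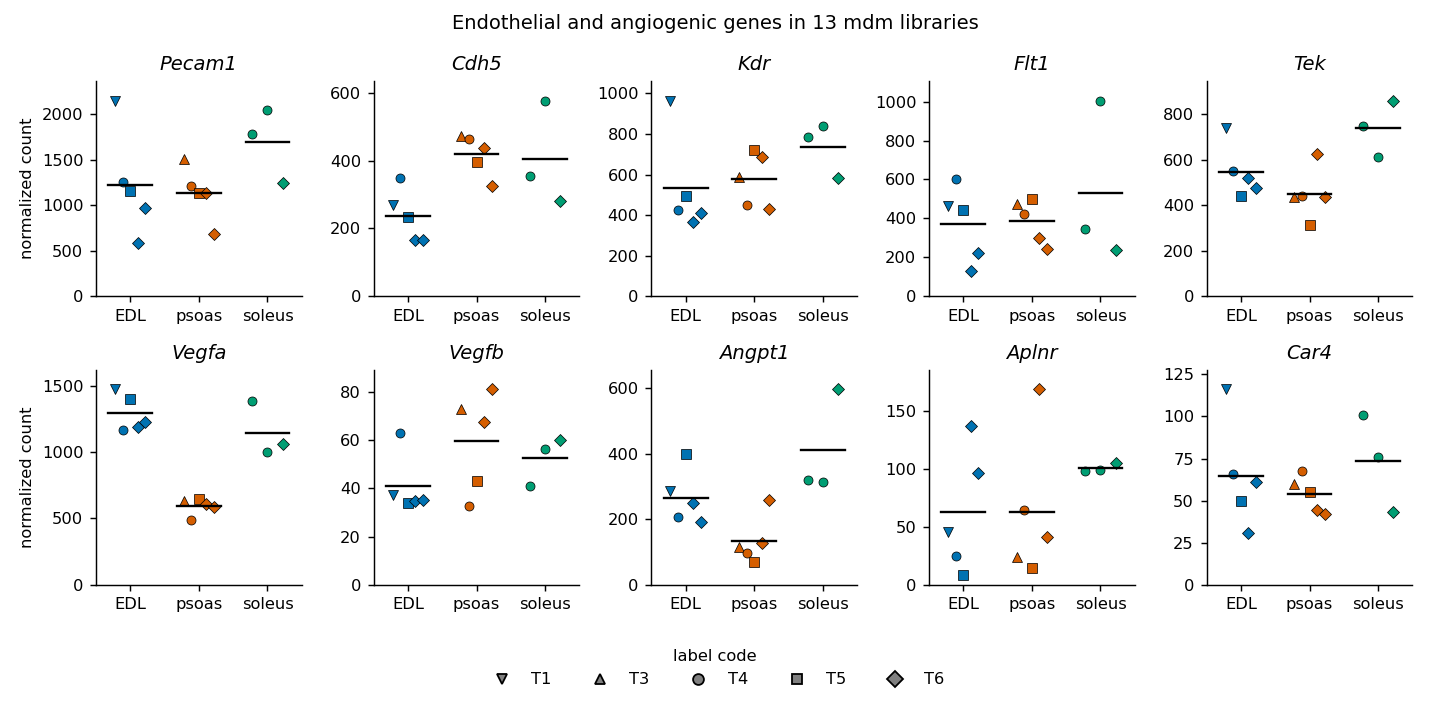
Normalized counts of the 10 genes in each of the 13 mdm libraries, grouped by muscle. Points are libraries, their shape is the label code, and the line is the mean of the muscle. The psoas points of Vegfa, from 484 to 643, sit below all EDL points, while the muscles overlap in most other panels.

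*Angpt1*, the ligand of TIE2, was lower in psoas than in EDL by the wider rule only, with more spread than *Vegfa*. The gene lies on the reverse strand of chromosome 15 (42424723 to 42676977), and 14.2% of its exon bases are shared with a gene on the opposite strand, *Gm17473*. Its normalized counts were 286, 205, 400, 248 and 191 in EDL, and 114, 97.2, 70.5, 127 and 259 in psoas. Psoas replicate 5 lay within the EDL range, and the other 4 psoas libraries lay below all of EDL. The log2 fold change was -1.0 with a standard error of 0.331 (edgeR adjusted p = 0.0499). Without psoas replicate 5 it was -1.38, with an adjusted p of 0.00798, and was called, while without EDL replicate 3 it was -0.80, with an adjusted p of 0.133. Its adjusted p stayed under 0.05 in 2 of the 13 fits that left out 1 library. With same-numbered EDL and psoas libraries as blocks, the edgeR adjusted p was 0.0473, and 0.0958 in replicates 2 to 5 alone.

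Soleus had the highest *Angpt1* levels, 319, 315 and 597 in normalized counts, all above all psoas libraries. The log2 fold change against psoas was 1.62 with a standard error of 0.369. With an edgeR adjusted p of 0.0697 it passed neither rule, whereas the DESeq2 Wald test called it with an adjusted p of 0.0051. Leaving out single libraries gave adjusted p from 0.0208 to 0.29, the highest without soleus replicate 3. The fitted level was 3.08-fold that of psoas, and within label codes T4 and T6 the log2 differences were 1.70 and 1.71. *Angpt1* and *Vegfa* were the 2 of 10 genes whose soleus and psoas libraries did not overlap, against 10.2% of all genes tested (4.97% with soleus higher). Soleus against EDL gave 0.63 with an adjusted p of 0.471.

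*Vegfb*, which signals through VEGF receptor 1 alone, was a low gene in every muscle. Its normalized counts were 37.5, 63.2, 33.8, 34.9 and 35.2 in EDL, 73.1, 32.6, 43.1, 67.8 and 81.2 in psoas, and 41.0, 56.4 and 60.2 in soleus. EDL replicate 2 stood above the other EDL libraries, which lay close together, and psoas replicate 2 was the lowest of all 13. In psoas against EDL the log2 fold change was 0.52 with a standard error of 0.301 and an edgeR adjusted p of 0.241. The differences within label codes did not share a sign: -0.93 in T4, 0.34 in T5 and 1.06 in T6. It passed neither rule.

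Among the endothelial adhesion genes, *Cdh5* (VE-cadherin; chromosome 8, 104101625 to 104144511, forward strand) was higher in psoas and *Pecam1* (CD31; chromosome 11, 106654217 to 106750628, reverse strand) was not. The *Cdh5* normalized counts were 270, 348, 233, 165 and 166 in EDL, 472, 465, 396, 438 and 324 in psoas, and 355, 577 and 282 in soleus. EDL replicate 2 exceeded psoas replicate 5, and otherwise psoas lay above EDL. Psoas exceeded EDL by a log2 fold change of 0.82 with a standard error of 0.247 (edgeR adjusted p = 0.0342), past the wider rule and under the fold limit. It was higher in psoas in 5 of 5 same-numbered pairs, of which that of replicate 1 joins mice of 38 and 29 days. With these pairs as blocks the log2 fold change was 0.88 with an edgeR adjusted p of 0.0074. On replicates 2 to 5 alone it was 0.88 with an adjusted p of 0.0188. Without blocks, leaving out EDL replicate 5 gave *Cdh5* an adjusted p of 0.0839, and 7 of the 13 fits leaving out 1 library kept it under 0.05. With *Vegfa* and *Angpt1*, *Cdh5* made 3 of 10 genes past the wider rule in this comparison, 1 higher and 2 lower, against 18.1% of all genes tested, 9.06% in each direction.

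*Pecam1* varied more within muscles than between them. In EDL it ran from 582 in replicate 4 to 2149 in replicate 1, in psoas from 684 in replicate 5 to 1502 in replicate 1, and in soleus from 1248 in replicate 3 to 2048 in replicate 2. Psoas against EDL gave a log2 fold change of -0.11 with a standard error of 0.302 (edgeR adjusted p = 0.827), and it turned to 0.18 without EDL replicate 1. Soleus stood 0.48 above EDL and 0.59 above psoas on the log2 scale, with adjusted p of 0.575 and 0.496.

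Of the VEGF receptors among the 10, *Kdr* and *Flt1* showed no difference that passed either rule. *Kdr*, the main signalling receptor for VEGF-A, had normalized counts of 965, 425, 494, 367 and 409 in EDL, 588, 451, 723, 684 and 432 in psoas, and 787, 841 and 581 in soleus. EDL replicate 1 stood far above the other 4 EDL libraries and above all psoas and soleus libraries. Log2 fold changes were 0.11 in psoas and 0.48 in soleus against EDL, with edgeR adjusted p of 0.799 and 0.506. *Flt1*, which binds VEGF-A as a weak kinase and as a soluble trap, had 464, 603, 442, 131 and 220 in EDL, 476, 424, 500, 297 and 240 in psoas, and 343, 1006 and 239 in soleus. Both EDL libraries and both psoas libraries of label code T6 were the lowest of their muscle, as was the 1 soleus library of that code. The *Flt1* log2 fold change was 0.05 in psoas against EDL. Soleus against EDL gave 0.52 with all libraries and -0.35 without soleus replicate 2, and soleus against psoas 0.47 and -0.41, so the sign rested on that library.

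*Tek* (chromosome 4, 94739289 to 94874976, forward strand) had normalized counts from 440 to 737 in EDL, from 314 to 624 in psoas and from 611 to 860 in soleus. Psoas replicate 4 exceeded the lowest soleus library, and all other psoas libraries lay below soleus. The log2 fold change of soleus against psoas was 0.72 with a standard error of 0.224, an unadjusted p of 0.0059 and an edgeR adjusted p of 0.195. *Tek* and its ligand *Angpt1* had their lowest value of the 13 libraries in the same one, psoas replicate 3, and their highest in the same one, soleus replicate 3.

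*Aplnr* (chromosome 2, 85136225 to 85139923, forward strand) was the least even gene of the group. Its normalized counts were 45.6, 24.9, 7.96, 137 and 96.0 in EDL, 24.2, 64.1, 14.7, 168 and 41.4 in psoas, and 98.1, 98.6 and 105 in soleus. The 2 libraries of label code T5, EDL replicate 3 and psoas replicate 3, were the lowest of their muscles, and the 2 EDL libraries of code T6 the highest of theirs. The highest library was 21.2-fold the lowest, which rested on 4 counts, and the log2 fold changes were 0.01, 0.70 and 0.69 in psoas against EDL, soleus against EDL and soleus against psoas (edgeR adjusted p = 0.996, 0.733 and 0.705). *Apln*, its ligand, was at a normalized count of 0 in EDL replicate 3 and at 134 in EDL replicate 5.

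*Car4* (chromosome 11, 84957786 to 84966044, forward strand) ran from 30.5 to 116 normalized counts in EDL, from 42.3 to 67.8 in psoas and from 43.0 to 101 in soleus. All 3 muscles overlapped, and the edgeR adjusted p was 0.602, 0.878 and 0.617 in the 3 comparisons. Its highest library was EDL replicate 1, which was also the highest for *Pecam1* and *Kdr*.

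**Figure D2:**
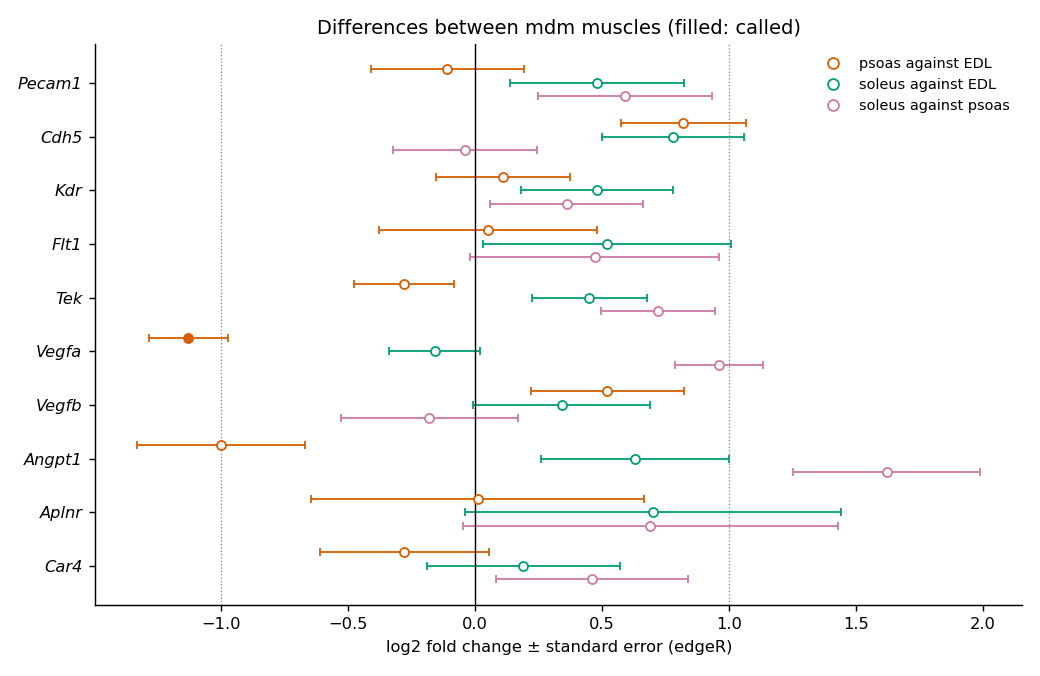
Log2 fold changes of the 10 genes in the 3 comparisons between mdm muscles, from the edgeR fit over all 13 libraries. Points are fold changes, bars standard errors, dotted lines the fold limit, and a filled point a called gene. The one filled point is Vegfa in psoas against EDL at -1.13.

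Compared per length, *Vegfa* and *Pecam1* were the most abundant of the 10. Over all 13 libraries *Vegfa* averaged 230.6 normalized counts per kb of exon and *Pecam1* 208, followed by *Tek* at 117, *Cdh5* at 82.2, *Kdr* at 66.0 and *Angpt1* at 47.7. *Car4* at 31.8, *Vegfb* at 31.6 and *Flt1* at 30.7 normalized counts per kb could not be ordered within their spread, and *Aplnr* was lowest at 19.3. *Vegfa* also stood above *Pecam1* in the mean of EDL alone. In psoas it was the other way round, with *Pecam1* at 182 ± 47.0 and *Vegfa* at 138 ± 14.9 normalized counts per kb (SD, n = 5), and in soleus *Pecam1* was at 272 ± 65.4 and *Vegfa* at 268 ± 48.0 (SD, n = 3), less apart than their spread. In EDL *Vegfa* stood at 301 ± 32.2 and *Pecam1* at 196 ± 92.8 normalized counts per kb. *Kdr* exceeded *Flt1* per kb in the mean of each muscle, at 58.9 against 27.5 in EDL, 63.7 against 28.7 in psoas and 81.5 against 39.2 in soleus, with an exon length of 9030 bases for *Kdr* and 13504 for *Flt1*.

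**Figure D3:**
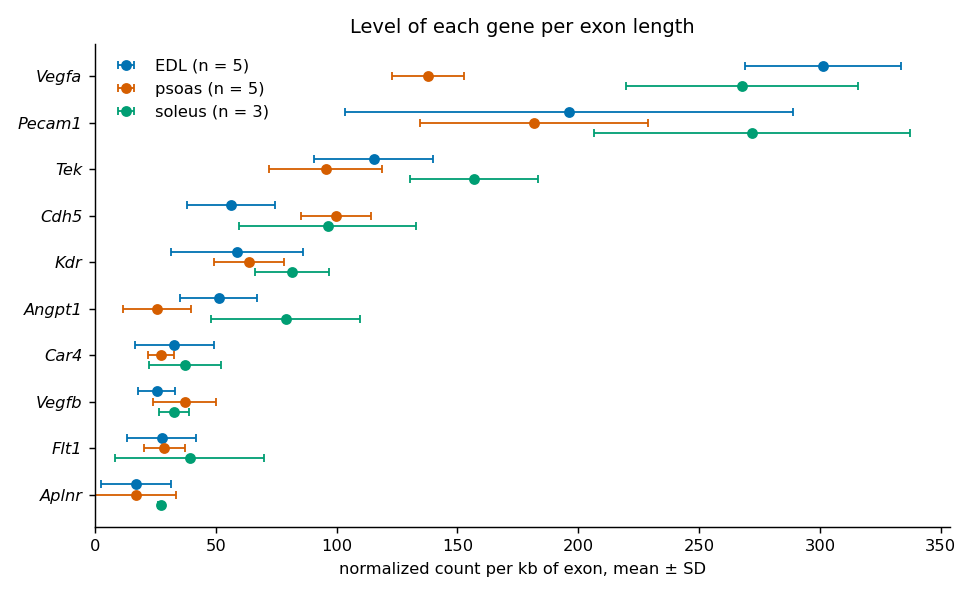
Normalized counts per kb of exon, mean and SD over the libraries of each muscle, with genes ordered by their mean over all 13 libraries. Vegfa and Pecam1 lie at the top and Aplnr at the bottom, and Vegfa drops to 138 in psoas.

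The mean log2 CPM of the endothelial genes *Pecam1*, *Cdh5*, *Kdr*, *Flt1* and *Tek* served as an endothelial level of each library. It was 5.38, 5.10, 4.84, 4.11 and 4.44 in EDL, 5.17, 4.99, 5.03, 5.08 and 4.55 in psoas, and 5.28, 5.75 and 4.97 in soleus. The means were 4.78 ± 0.51 in EDL (SD, n = 5), 4.96 ± 0.24 in psoas (SD, n = 5) and 5.33 ± 0.40 in soleus (SD, n = 3), with overlap between all 3 muscles. The lowest library of each muscle was 1 of label code T6. In whole muscle, fewer endothelial cells and less RNA per endothelial cell cannot be told apart.

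Set against this level, *Vegfa* still separated psoas from EDL. Its log2 CPM exceeded the level by 1.46 ± 0.43 in EDL, with a range of 1.02 to 1.99, and by 0.15 ± 0.27 in psoas, with a range of -0.17 to 0.55, and the muscles did not overlap. *Angpt1* lay 0.86 below the level in EDL (-0.86 ± 0.57) and 2.12 below it in psoas (-2.12 ± 0.88), with psoas replicate 5 among the EDL libraries. *Cdh5*, which is itself part of the level, lay between -1.41 and -0.71 in EDL and between -0.48 and -0.22 in psoas, again without overlap. *Kdr*, also part of the level and so not independent of it, lay at 0.09 in the mean of all 3 muscles.

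**Figure D4:**
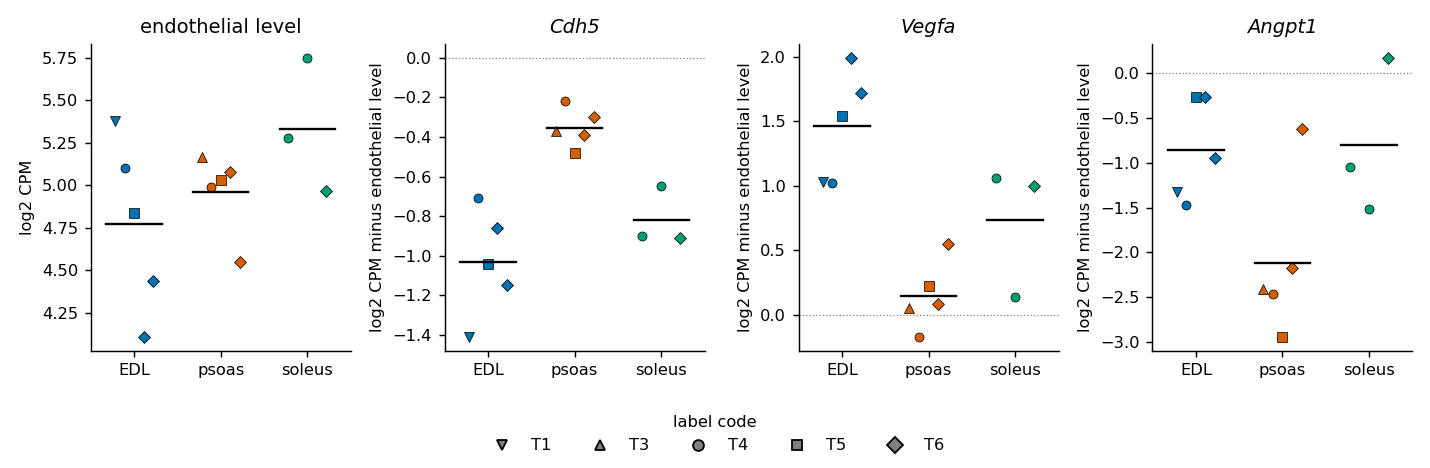
The endothelial level of each library (mean log2 CPM of Pecam1, Cdh5, Kdr, Flt1 and Tek) and the log2 CPM of Cdh5, Vegfa and Angpt1 minus that level. Points are libraries, shapes label codes and lines muscle means. Psoas lies above EDL for Cdh5 and below it for Vegfa with no overlap.

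The 10 genes did not move as 1 block across the 13 libraries. As a description, with muscle, label code and depth shared between the points, Pearson r of log2 CPM was 0.86 for *Pecam1* and *Car4*, 0.82 for *Pecam1* and *Kdr*, 0.76 for *Pecam1* and *Flt1* and 0.73 for *Cdh5* and *Flt1*. *Vegfa* correlated with *Angpt1* by 0.70, but by 0.07 once each muscle was centred on its own mean. *Cdh5* and *Vegfa* gave -0.57, and -0.06 after centring. *Tek* and *Flt1* gave -0.05.

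The genes most like the endothelial level over the 13 libraries were *Ptprb* (r = 0.94), *Robo4* (0.93), *She* (0.916), *Fhl5* (0.889), *Slc25a36* (0.883) and *Notch4* (0.874). *Ptprb* encodes the endothelial phosphatase VE-PTP and *Robo4* an endothelial guidance receptor. Across a fixed list of 18 other endothelial genes, r with the level ran from 0.132 to 0.94, with a median of 0.604. Those most like *Vegfa* were *Asph* (0.965), *Hoxa13* (0.932) and *Larp1b* (0.931), of which *Hoxa13* is a homeobox gene of the distal limb. The nearest to *Angpt1* were *Abcd2* (0.922), *Dhrs7b* (0.896) and *Rnf13* (0.894). For *Car4* they were *Gpihbp1* (0.901), which carries lipoprotein lipase onto the capillary wall, *Ddx47* (0.877) and *Esam* (0.872). *Vegfb* had *Acadl* (0.849), *Gm9774* (0.833) and *Sox7* (0.814), and *Aplnr* had *Mblac1* (0.892), *Slc27a3* (0.883) and *Prelid1* (0.882).

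Other endothelial genes were counted from a list of 18. In psoas against EDL 1 of 18 was called, near the 4.93% of all genes. It was *Vwf*, which encodes the clotting protein von Willebrand factor. The median log2 fold change was 0.18 beside 0.02 for all genes tested. *Vwf* ran from 110 to 196 normalized counts in EDL, from 312 to 578 in psoas and from 334 to 544 in soleus. EDL did not overlap either other muscle, as for 13% of all genes tested against psoas and 11% against soleus. The *Vwf* log2 fold changes were 1.42 in psoas and 1.62 in soleus against EDL (edgeR adjusted p = 0.00196 and 0.00445). The soleus call was kept in 10 of the 13 fits that left out 1 library, with an adjusted p of 0.0247 without soleus replicate 2. *Erg*, an endothelial transcription factor, went the other way in psoas against EDL, at -0.97 with an adjusted p of 0.0144, past the wider rule only. In soleus against EDL, 17 of the 18 fold changes were positive with a median of 0.64 beside -0.03 for all genes, and *Vwf* was called. Of all genes tested, 0.533% were called as higher there. *Plvap* (1.53, adjusted p = 0.0153) and *Nos3*, the endothelial nitric oxide synthase (1.19, adjusted p = 0.0378), passed the wider rule. Leaving out soleus replicate 2 raised these values to 0.112 for *Plvap* and 0.155 for *Nos3*.

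Of the 5 genes of the lymphatic list, 3 were called as higher in psoas and 3 as higher in soleus against EDL, where 2.43% and 0.533% of all genes tested were called as higher. The median log2 fold changes were 1.69 and 2.42. *Prox1*, the transcription factor of lymphatic identity, which muscle fibres also express, ran from 31.1 to 82.2 normalized counts in EDL, from 148 to 414 in psoas and from 174 to 541 in soleus. *Flt4*, VEGF receptor 3, ran from 11.95 to 26.8 in EDL, from 34.8 to 81.2 in psoas and from 72.2 to 146 in soleus. *Ccl21a*, a lymphatic chemokine gene with near-identical copies that reads may not tell apart, ran from 19.9 to 54.9 in EDL, from 137 to 367 in psoas and from 485 to 666 in soleus. In each of the 3 genes EDL lay below both other muscles with no overlap, while *Lyve1* and *Pdpn* of the same list overlapped. Of all genes tested, 13% had no overlap between psoas and EDL and 11% none between soleus and EDL, in either direction.

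On the log2 scale against EDL, *Prox1* was higher by 2.17 in psoas and 2.69 in soleus (edgeR adjusted p = 0.00345 and 0.00457). *Flt4* was higher by 1.69 and 2.42 (adjusted p = 0.00523 and 0.00402), and *Ccl21a* by 2.85 and 4.05 (adjusted p = 0.000654 and 8.54e-05). The other members of the list were less clear. *Lyve1*, which macrophages also express, was at 0.63 and 0.89 with adjusted p of 0.394 and 0.5, and *Pdpn* at 0.91 in psoas (adjusted p = 0.0244) and 0.24 in soleus (adjusted p = 0.772). In soleus against EDL, leaving out soleus replicate 2 gave adjusted p of 0.0305 for *Prox1* and 0.028 for *Flt4*, and the calls were kept in 9 and 10 of 13 such fits. In psoas against EDL, *Flt4* kept its call in 8 of 13, with an adjusted p of up to 0.0161 without psoas replicate 2, and *Prox1* in 12 of 13. In soleus against psoas edgeR called 0 of the 5, with 2 at an unadjusted p under 0.05, which 12.7% of all genes tested reached, and DESeq2 called 0.

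**Figure D5:**
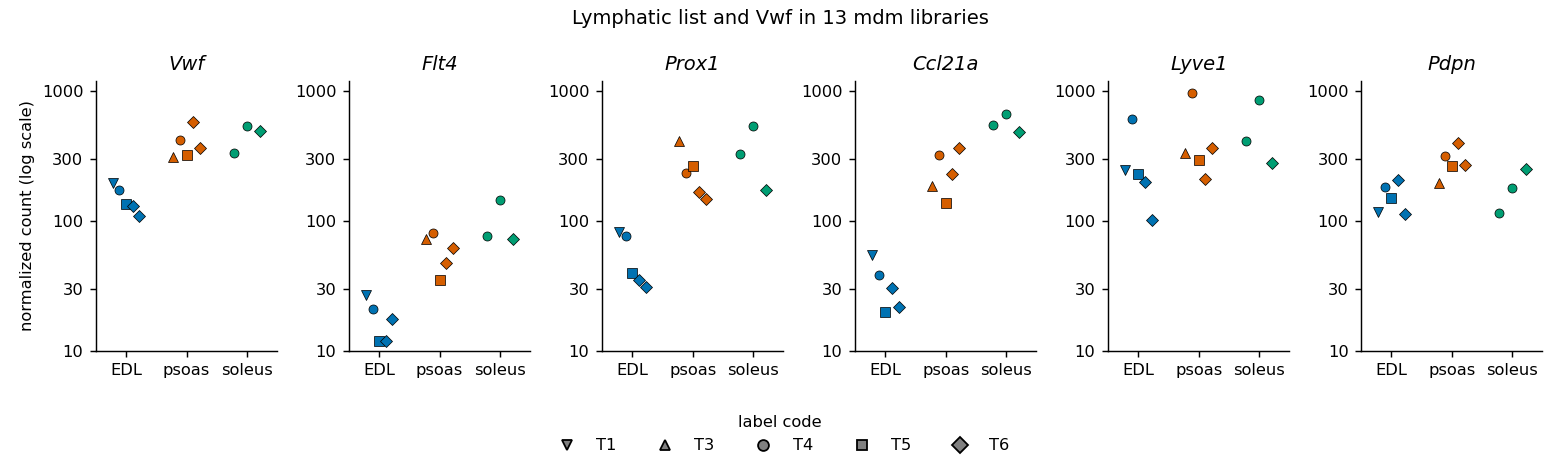
Normalized counts on a log axis of Vwf and the 5 genes of the lymphatic list in each library, by muscle. Points are libraries and shapes label codes. EDL lies below psoas and soleus in Vwf, Flt4, Prox1 and Ccl21a, and the muscles overlap in Lyve1 and Pdpn.

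Few other genes of the VEGF and angiopoietin families passed a rule. Of 6 other VEGF family and receptor genes tested, *Flt4* was the 1 called, in psoas and in soleus against EDL. Of all genes tested, 2.43% and 0.533% were called as higher in these 2 comparisons, and 9.06% passed the wider rule as higher in psoas than EDL. *Vegfc*, a ligand of VEGF receptor 3, had mean normalized counts of 27.5 in EDL, 29.0 in psoas and 51.3 in soleus, where its 3 libraries lay above all others, with edgeR adjusted p of 0.19 against EDL and 0.316 against psoas. Soleus libraries lay above all psoas libraries in 4.97% of all genes tested. *Vegfd* had means of 50.4, 45.7 and 47.1 in EDL, psoas and soleus. Of 8 angiopoietin and apelin genes tested, edgeR and DESeq2 called 0 in each comparison, with 2, 1 and 0 at an unadjusted p under 0.05 in psoas against EDL, soleus against EDL and soleus against psoas. The shares of all genes tested at that limit were 33.3%, 15.1% and 12.7%. *Angpt2*, the counterpart of *Angpt1* at TIE2, had means of 61.7, 83.0 and 103 normalized counts in EDL, psoas and soleus. Of 9 Notch genes, *Heyl*, a Notch target of mural cells, was called as higher in psoas than EDL (1.32, edgeR adjusted p = 0.00778), and its adjusted p stayed under 0.01 in 3 of the 13 fits that left out 1 library. *Notch1* was at 1.37 (adjusted p = 0.0103), past the wider rule, and was called at 1.56 with same-numbered libraries as blocks (adjusted p = 0.00365). Of 6 venous genes, *Vwf* was called as above, and *Selp*, the adhesion receptor P-selectin, was at 1.39 in psoas against EDL (adjusted p = 0.0471, and 0.0584 with the pairs as blocks), under 0.05 in 3 of 13 fits without 1 library.

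Of 8 angiogenesis inhibitors, *Col18a1*, the source of endostatin, was called as higher in psoas than EDL, with 345 to 577 against 69.7 to 202 normalized counts and a log2 fold change of 1.68 (edgeR adjusted p = 0.00135). Of all genes tested, 2.43% were called as higher there and 9.06% passed the wider rule as higher. *Vash1*, which encodes vasohibin, was at 1.19 in psoas and 1.49 in soleus against EDL (adjusted p = 0.0115 and 0.018), past the wider rule, as were 3.43% of all genes in soleus against EDL. With the pairs as blocks it was called in psoas against EDL (adjusted p = 0.00812), but not on replicates 2 to 5 alone (1.02, adjusted p = 0.0191). Among 10 regulators of *Vegfa* by oxygen and oxidative metabolism, edgeR and DESeq2 called 0 in each comparison. In psoas against EDL 4 had an unadjusted p under 0.05, near the 33.3% of all genes tested. *Egln1*, the oxygen sensor that marks HIF proteins for breakdown, was at -0.92 in psoas against EDL (adjusted p = 0.0126) and *Ppargc1b* at 1.21 (adjusted p = 0.029). *Epas1*, the HIF-2 alpha gene of endothelium, was at 0.73 (adjusted p = 0.0561). *Ppargc1a* ran from 176 to 1987 normalized counts within EDL alone.

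Of the 8 capillary genes, 2 had positive fold changes in psoas against EDL, with a median of -0.49. EdgeR called 0 and DESeq2 1 of them, with 3 at an unadjusted p under 0.05, near the 33.3% of all genes tested. *Rgcc* was at -1.26 (edgeR adjusted p = 0.0389, under 0.05 in 5 of 13 fits without 1 library), and was called with the pairs as blocks (adjusted p = 0.00522). *Fabp4*, a fatty acid carrier of capillaries and of adipocytes, was at 1.71 in soleus against EDL (adjusted p = 0.022). The adipocyte genes *Adipoq* and *Retn* were called as higher in soleus than EDL (2.30 and 2.28), calls that each held in 5 of 13 fits leaving out a single library (0.038 and 0.0361 without soleus replicate 1), and the part of fat cells in the *Fabp4* value was not tested. Of the 7 arterial genes edgeR and DESeq2 called 0 in each comparison, with 2, 3 and 1 at an unadjusted p under 0.05. Of all genes tested, 33.3%, 15.1% and 12.7% reached that in psoas against EDL, soleus against EDL and soleus against psoas. Of 10 other carbonic anhydrase genes tested, *Car14*, a membrane form of muscle fibres, was called as lower in both other muscles, as were 2.5% of all genes in psoas and 0.445% in soleus, with 121 to 591 normalized counts in EDL, 5.34 to 49.7 in psoas and 5.71 to 24.1 in soleus. The log2 fold changes were -3.78 and -4.77 (edgeR adjusted p = 0.00182 and 0.00639). The soleus call was kept in 7 of the 13 fits that left out 1 library, with an adjusted p of 0.0441 without soleus replicate 1. *Car5b*, a mitochondrial form, was at 2.38 in soleus against EDL (adjusted p = 0.0115), and *Car13*, a cytosolic one, at 1.16 (adjusted p = 0.0444).

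Genes of other cells and of muscle fibres moved with the same contrast of psoas against EDL. The summed normalized count of 5 mesothelial genes was 41.8 to 121 in EDL and 255 to 1050 in psoas, with 4 of 5 called, and that of 4 Schwann cell genes 452 to 1238 and 2175 to 18440, with 2 of 4 called. The 5 red cell genes, among them the near-identical *Hba-a1* and *Hba-a2*, summed to 97.5 to 577 in EDL and 49.5 to 6636 in psoas. EdgeR called 0 of these 5 and DESeq2 3, with 4 past the wider rule and 5 at an unadjusted p under 0.05. In this comparison edgeR called 4.93% of all genes tested, 18.1% passed the wider rule and 33.3% had an unadjusted p under 0.05. Of 7 mural cell genes edgeR called 0 and DESeq2 1, with 5 at an unadjusted p under 0.05, and *Cspg4* at 0.86, *Notch3* at 1.18 and *Rgs5* at -0.81 past the wider rule. Of the 5 macrophage genes and the 3 fibroblast genes both tools called 0, with 0 and 1 at an unadjusted p under 0.05. Of 5 general fibre genes, *Ckm* (-1.67) and *Tnnt3* (-1.70) were called as lower, and of 4 fast fibre genes *Myh4* (-4.18) and *Mybpc2* (-3.01). No marker of these lists was at 0 in all 13 libraries, and the part of these cells or of fibre type in the values of *Vegfa*, *Angpt1*, *Cdh5*, *Vwf* and the lymphatic genes was not tested.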

How the data were processed

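RNA of 13 *mdm* muscles was sequenced on a NextSeq 500 from TruSeq Stranded Total RNA libraries. The authors trimmed reads where quality was low (Trimmomatic 0.32), aligned them to GRCm38 (TopHat2 2.1.1) and deposited whole-number counts per gene from GenomicAlignments. The strand and overlap settings of counting were not given in the sources used here. The authors also deposited a normalized signal, the count divided by a DESeq2 size factor, which each library's values matched within 5.2e-15 of it. These factors, 0.5023 to 2.417, were computed by the authors over libraries that include ones not used here.

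Symbols, coordinates and union exon lengths came from GENCODE vM21 (17833 of 17924 genes), and promoters from RefSeq (GRCm38.p6). The 17069 genes with 10 or more normalized counts in 3 or more libraries were fitted with edgeR 4.0.16 in R 4.3.3 (TMM, quasi-likelihood, muscle as the factor, all 13 libraries), with Benjamini-Hochberg adjustment over all of them. The study also modelled the sequencing run, which the labels do not name. Log2 CPM had a prior count of 2. DESeq2 1.42.0, other scalings, other filters, blocks and single left-out libraries were alternatives. The code was tested on simulated data. Tables and figures used Python 3.11.15, pandas 2.3.3 and matplotlib 3.10.9.

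Deviations of same-numbered EDL and psoas libraries from their muscle means correlated by 0.407, 0.37, 0.316, 0.289 and 0.371, all over 0.1. These numbers were taken as pairs in the block fits. The pair of replicate 1 joins mice of 38 and 29 days with label codes T1 and T3, so it is not 1 animal. Replicates 2 to 5 share age and label code within each pair, so the correlation cannot tell a shared animal from a shared code. The number of mice in the study means that some *mdm* libraries share an animal, but not which ones. With the pairs as blocks 1267 genes were called in psoas against EDL, and 841 without. On replicates 2 to 5 alone the block gave 644. The text names all 10 genes, from each list up to 6 called genes by adjusted p and up to 4 defining ones, and the genes of highest r. List genes past the wider rule alone were chosen after their values were seen. The members and lists were chosen with earlier results of these data known. Counting intervals were not used, since replicate spread exceeded counting error. No 2 libraries were duplicates.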

Additional observations from a re-analysis of the deposited data

Results flagged for a closer look

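In 2 of 20 groups of 5 libraries tested, 1 library stood apart from the others of its muscle by Dixon's criterion, which chance alone meets in about 1 group in 20. *Kdr* in EDL replicate 1 had a normalized count of 964.8, and its gap to the next library was 0.788 of the whole range. *Vegfb* in EDL replicate 2 had a normalized count of 63.16, with a gap of 0.876 of the range.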

How the results depend on the processing

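*Vegfa* in psoas against EDL was called under each alternative run: DESeq2, the authors' size factors, RLE normalization, no filter on low counts, 2 muscles alone, both blocks and each of 13 left-out libraries. The number of the 10 genes called there was 1 throughout, except 3 at an adjusted p under 0.05 with no fold limit and a range of 1 to 2 with single libraries left out, the 2 without psoas replicate 5, where *Angpt1* was called too. In soleus against psoas it was 1 instead of 0 with that wider rule and 1 with DESeq2. Over all genes, the wider rule gave 3093 calls in psoas against EDL, 585 in soleus against EDL and 108 in soleus against psoas, and DESeq2 1586, 633 and 171, where the fit reported gave 841, 167 and 13. Fits of the 2 muscles alone gave 557 for psoas against EDL and 8 for soleus against psoas. The label code as a block gave 86 in soleus against EDL and 6 in soleus against psoas. With single libraries left out the 3 counts ranged from 317 to 802, 19 to 182 and 3 to 21, the lowest without EDL replicate 3 in the first and soleus replicate 1 in the others, and each such fit has fewer samples. The first count fell by over 1.5 times without EDL replicate 3 or 5 or psoas replicate 1 or 2 (317, 426, 447 and 365), and the soleus counts moved that far without 7 and 11 of the 13 libraries. Beyond that the cause was not tested.

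With the replicate numbers as a block the counts over all genes were 1267 for psoas against EDL and 1 for soleus against psoas. Soleus numbers were not taken as pairs with the others. Their correlations ran from -0.302 to 0.421, and the ages of same-numbered mice differed. The block changed no call among the 10 genes in psoas against EDL, though *Notch1*, *Vash1* and *Rgcc* became calls, and with soleus libraries it ended the calls of *Vwf* (adjusted p = 0.0463), *Flt4* (0.043) and *Adipoq* (0.0126) in soleus against EDL. It turned the sign of *Flt1* in soleus against EDL (-0.18) and against psoas (-0.10), of *Vegfb* in soleus against psoas (0.13) and of *Car4* in soleus against EDL (-0.06). On replicates 2 to 5 alone, chosen after seeing the data, the block turned *Pecam1* (0.09) and *Car4* (0.04) in psoas against EDL. There *Notch1* (adjusted p = 0.00141) and *Rgcc* (0.00847) were called and *Vash1* (0.0191) was not. The calls of *Heyl* (0.014), *Ckm* (0.0207), *Tnnt3* (0.0229), *Myh4* (0.0169) and *Mybpc2* (0.0124) ended in that fit, which has fewer libraries.

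Other sign changes, all of fold changes that passed neither rule, were *Pecam1* (0.09) and *Car4* (0.01) in psoas against EDL with the label code as a block, and *Aplnr* (-0.01) in the same comparison with RLE. With single libraries left out, log2 fold changes in psoas against EDL ranged from -0.29 to 0.18 for *Pecam1*, -0.17 to 0.31 for *Flt1*, -0.76 to 0.51 for *Aplnr* and -0.46 to 0.05 for *Car4*. In soleus against EDL they ranged from -0.35 to 0.86 for *Flt1*, -0.11 to 0.51 for *Car4* and -0.05 to 0.49 for *Pdpn*, and in soleus against psoas from -0.39 to 0.16 for *Cdh5* and -0.41 to 0.80 for *Flt1*. The cause was not tested. Differences in endothelial level kept their sign, ranging with single libraries left out from 0.02 (without EDL replicate 4) to 0.34 in psoas against EDL, 0.35 to 0.74 in soleus against EDL and 0.16 (without soleus replicate 2) to 0.56 in soleus against psoas.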
